A study of Mus musculus with 6 samples.

Results

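This report describes 9 genes that encode transcription factors of the heart: Mef2a, Mef2d, Gata6, Tbx20, Hand2, Nkx2-5, Hopx, Myocd and Srf. They were taken by symbol from a deposited RNA count table of 24516 genes, and all 9 were listed in it. Mef2a and Mef2d are paralogues of Mef2c, Gata6 of Gata4, and Tbx20 of Tbx5. Those 3 paralogues, Mef2c, Gata4 and Tbx5, are the factors that were switched on in the cells studied, so the 9 genes stand for factors that the induction did not supply. The cells were iMGT-Myh6-eGFP-MEFs, mouse embryonic fibroblasts engineered so that 1 ug/mL doxycycline induces Mef2c, Gata4 and Tbx5. The eGFP reporter is named for Myh6, the cardiac alpha-myosin gene. All 3 groups received doxycycline. They differed in the siRNA given on the day before: siControl, siJunb against the AP-1 subunit gene Junb, or siH1f0 against the gene of linker histone H1.0. Each group held 2 libraries labelled as biological replicates, all from a single line, and no library without induction or without siRNA was analysed here. The sample labels date the harvest to day 1 after induction, whereas the series text gives day 3 and a sort of GFP-positive cells, and which applies to these libraries was not settled.

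Heart muscle genes are read by a small set of factors that bind DNA in combination and often maintain one another's expression. MEF2 proteins (Mef2a, Mef2d) bind an A/T-rich site and are held in check by class IIa histone deacetylases. GATA6 and TBX20 belong to the same families as the induced factors and act in heart development, HAND2 builds the right ventricle, and NKX2-5 is an early marker of cardiac identity. SRF binds the CArG box of actin and other contractile genes, and myocardin (Myocd) is its cardiac and smooth muscle coactivator. HOPX is a small homeodomain protein that does not bind DNA itself and is known to restrain SRF.

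Library totals ran from 48690447 to 85979630 counts, and 13427 genes passed the count filter and were tested. Each siRNA target was lower in its own group. H1f0 was also called lower in siJunb (log2 change -0.23, edgeR adjusted p = 0.0210), a call lost in 5 of 14 alternative fits. Junb in siH1f0 had a log2 change of -0.29 and was not called (edgeR adjusted p = 0.0778). In CPM, a gene's counts scaled to the total of its library, Junb measured 39.5 and 35.6 with siControl against 10.5 and 8.73 with siJunb, and H1f0 measured 808 and 741 with siControl against 52.3 and 55.3 with siH1f0. The siControl 1 library stood apart for the induced factors: Mef2c was at 358 CPM there against 708 CPM in siControl 2, and between 716 and 803 CPM in the 4 knockdown libraries. Of 10 fibroblast marker genes 8 averaged at least 1 CPM, and the list summed to between 10921 and 13335 CPM per library, with Thy1 at most at 0.0116 CPM. Of 12 cardiomyocyte markers 8 did so, and the list summed to between 186 and 237 CPM, with Myl3 at 0 in every library. Endothelial markers (6 genes) summed to at most 0.304 CPM and skeletal muscle markers (8 genes) to at most 0.730 CPM.

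The DNA in front of Srf, Hopx and Mef2d is shown first, because Hopx and Mef2d are the members that changed and the Srf and Hopx windows hold matches to the site that SRF binds. RefSeq promoter windows (GRCm38.p6, 250 bases before to 50 after an annotated start) were on hand for 7 of the 9 members, 8 windows in all because Hopx has 2 starts. Capitals mark a CArG box, the 10-base site of SRF, searched on both strands. The Srf window lies at chr17:46556113-46556412 on the minus strand, the Hopx window at chr5:77115074-77115373 on the minus strand, and the Mef2d window at chr3:88142122-88142421 on the plus strand.
Srf: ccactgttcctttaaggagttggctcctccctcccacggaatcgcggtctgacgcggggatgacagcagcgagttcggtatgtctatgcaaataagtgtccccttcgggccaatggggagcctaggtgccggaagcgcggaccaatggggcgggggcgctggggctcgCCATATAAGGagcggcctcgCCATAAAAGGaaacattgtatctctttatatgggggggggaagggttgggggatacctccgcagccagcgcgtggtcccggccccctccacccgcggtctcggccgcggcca
Hopx: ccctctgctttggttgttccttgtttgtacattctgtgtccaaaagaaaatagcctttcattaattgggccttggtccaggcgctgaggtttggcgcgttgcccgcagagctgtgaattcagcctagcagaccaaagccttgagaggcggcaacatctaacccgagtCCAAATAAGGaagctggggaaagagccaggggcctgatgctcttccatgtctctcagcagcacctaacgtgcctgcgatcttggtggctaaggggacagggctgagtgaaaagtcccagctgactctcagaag
Mef2d: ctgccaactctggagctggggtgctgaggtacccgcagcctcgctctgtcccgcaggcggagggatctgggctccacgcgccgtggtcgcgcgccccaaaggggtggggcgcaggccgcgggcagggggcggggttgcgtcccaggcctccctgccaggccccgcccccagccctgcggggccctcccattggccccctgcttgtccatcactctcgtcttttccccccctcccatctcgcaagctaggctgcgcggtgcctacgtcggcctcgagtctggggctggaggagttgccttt
Srf held 2 CArG boxes, CCATATAAGG at position -82 and CCATAAAAGG at position -62 relative to the start. Hopx held 1, CCAAATAAGG at position -83 of its upstream start, and the window at its other start (chr5:77095218-77095517) held none. Among 32851 promoter windows of the same length 1.63% contained a CArG box. The AP-1 site TGANTCA, the site of the factor that Junb is part of, was found in 7.81% of all windows and in none of these 8. The Mef2d window matched none of the 6 motifs searched, which were these and the MEF2 site (3.19% of all windows), GATA sites TGATAA or AGATAA (18.6%), the T-box site GGTGTGA (3.98%) and the NK2 site TNAAGTG (11.5%). A MEF2 site, CTAAAAATAG, lay at position -2 of the Mef2a window. The other Hopx window held an NK2 match, CACTTGA, at position 34. The Hand2 window held 2 GATA matches, TGATAA at position -215 and TTATCT at position -172. A match describes letters in the window and does not show that a factor bound there.

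Of the 9 members, 5 passed the count filter: Mef2a, Mef2d, Gata6, Hopx and Srf. The other 4 were at or near 0 in all groups. Nkx2-5 (chromosome 17, 26838664 to 26844988), Tbx20 (chromosome 9, 24720812 to 24774303) and Hand2 (chromosome 8, 57320983 to 57324517) had 0 counts in all 6 libraries. Over the 389684462 counts of the 6 libraries together, a count of 0 allows a level of up to 0.0077 CPM, taking 3 counts as the limit. That limit covers counting error only. In the table as a whole 6803 genes, 27.7%, were at 0 in all 6 libraries. Myocd (chromosome 11, 65173608 to 65269989) had 6 and 0 counts in siControl, 0 and 2 in siJunb, and 2 and 3 in siH1f0. The exact Poisson 95% interval of its highest value, 0.0698 CPM in siControl 1, ran from 0.0256 to 0.152 CPM, and the groups overlapped. A difference in Myocd was not detectable at this depth. None of these 4 genes reached the count filter, in cells with the induced Tbx5 at 1880 to 2655 CPM.

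Per length, the MEF2 genes and Srf lay above Gata6, and Gata6 above Hopx. In TPM (counts divided by gene length and scaled to a common sum per library, computed from the counts and the deposited gene lengths), Mef2a averaged 63.2 ± 4.41, Mef2d 54.0 ± 11.6, Srf 51.2 ± 2.27, Gata6 21.4 ± 0.964 and Hopx 12.1 ± 2.22 (SD over all 6 libraries). Mef2a exceeded Srf in every library, Gata6 lay below both and above Hopx in every library, while Mef2d ranged from 41.9 to 70.1 TPM and so moved from below Srf to above Mef2a. Among the tested genes of siControl 2, Mef2a stood at percentile 73.0, Mef2d at 66.6, Srf at 66.3, Gata6 at 44.6 and Hopx at 30.2. The induced factors stood far above them in that library, at 293 TPM for Mef2c, 1123 TPM for Gata4 and 1758 TPM for Tbx5. These lengths are of the annotated genes, and the length of the induced copies is not given in the sources used here.

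Because the induced factors were so abundant, the members were checked for reads that could belong to a paralogue. Of all 50-base words in the GENCODE vM21 transcripts of the 9 members, 0 were also present in a transcript of Mef2c, Gata4 or Tbx5. Words shared with any other gene made up 3.65% for Mef2a and 7.81% for Mef2d, and Srf shared none. Hopx shared 24.0% of its words with its antisense gene Hopxos, and Mef2d shared its words with the antisense gene 1700113A16Rik. The latter had 121 counts over all 6 libraries, against between 5491 and 9362 counts of Mef2d in each. Exons of Mef2a overlap those of the protein-coding gene Lysmd4 on the opposite strand over 302 bases, and Lysmd4 had 5435 counts over the 6 libraries. The strand setting of the counting is not given in the sources used here, so reads of such opposite-strand overlaps, those of Hopx and of Hopxos (no row of the table) included, cannot be told apart.

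**Figure D1:**
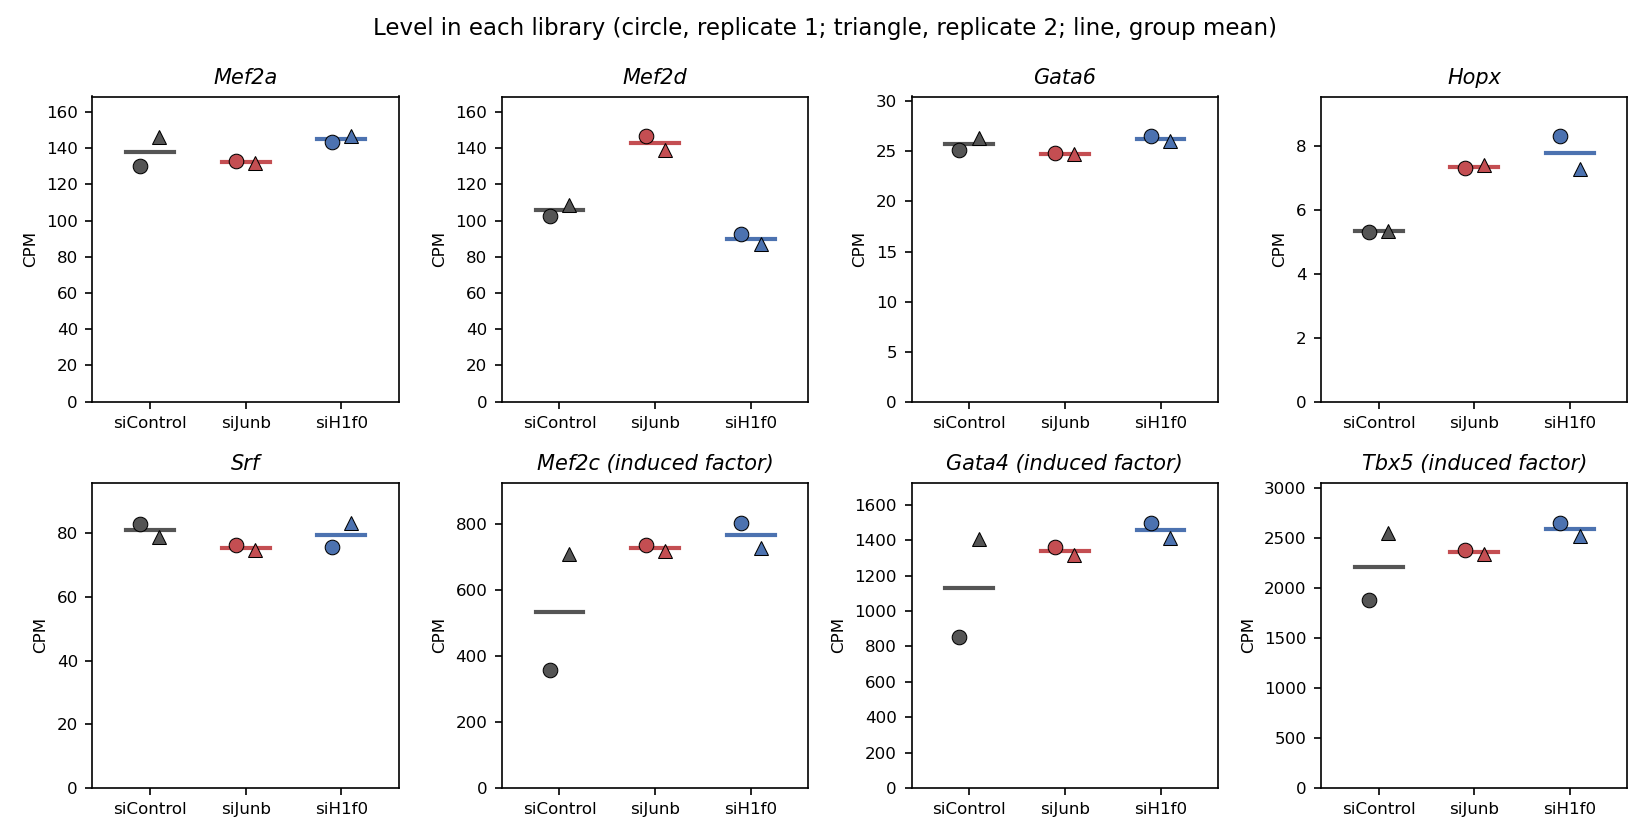
CPM (vertical axis of each panel, from 0) of the 5 measured members and the 3 induced factors in each library, by siRNA group (horizontal axis); circles are replicate 1, triangles replicate 2 and lines group means. Mef2d separates all 3 groups, Hopx is lower in siControl than in both knockdowns, and siControl 1 lies below the other libraries for Mef2c, Gata4 and Tbx5.

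Mef2d (gene 17261, chromosome 3, 88141941 to 88172091) encodes the MEF2 protein known for its action in muscle differentiation and stress-responsive cardiac growth, and it was the member with the largest spread between groups. It measured 103 and 109 CPM in the siControl pair, 147 and 139 in the siJunb pair, and 92.5 and 87.2 in the siH1f0 pair. Both siJunb libraries were above, and both siH1f0 libraries below, both siControl libraries. In siJunb Mef2d rose by 0.47 ± 0.06 on the log2 scale (SE; edgeR adjusted p = 0.00183), 1.38-fold, from 106 ± 4.08 to 143 ± 5.44 CPM (SD, n = 2 each). In siH1f0 it fell by 0.25 ± 0.06 (edgeR adjusted p = 0.0422) to 89.8 ± 3.75 CPM. The direct comparison put Mef2d 0.72 ± 0.06 lower on the log2 scale in siH1f0 than in siJunb (edgeR adjusted p = 9.86e-05), which is 1.64-fold higher in siJunb. In these bulk libraries, fewer cells that carry an RNA and less RNA per cell cannot be told apart. The rise in siJunb passed under all 14 alternatives (adjusted p up to 0.0444) and measured 0.42 without siControl 1. The direct difference also passed under all 14. The decrease in siH1f0 lost its call when the siJunb libraries were dropped from the fit (adjusted p = 0.107) and when any knockdown library was dropped. The adjusted p was then 0.109 for either siJunb library, 0.187 for siH1f0 1 and 0.323 for siH1f0 2, and ran from 8.86e-07 to 0.323 over all alternatives.

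Mef2a (gene 17258, chromosome 7, 67231163 to 67376456), the other MEF2 gene that was measured, did not follow Mef2d. It measured 130.0 and 146 CPM in the siControl pair, 133 and 132 in the siJunb pair, and 143 and 146 in the siH1f0 pair, and the siControl libraries spanned nearly the whole range. The log2 difference from siControl was -0.026 in siJunb (95% interval -0.17 to 0.12, edgeR adjusted p = 0.817) and 0.057 in siH1f0 (-0.089 to 0.20, adjusted p = 0.644). Between the knockdowns it was 0.082 higher in siH1f0 (-0.064 to 0.23, adjusted p = 0.385). Leaving out a library leaves 1 in its group, whose spread is then taken to be that of the other groups. With siControl 1 left out the siJunb difference was -0.12 and passed (adjusted p = 0.0137), and with siControl 2 left out it was 0.061, of the opposite sign (adjusted p = 0.198). In siH1f0 the same omissions gave -0.035 (adjusted p = 0.580) and 0.15, the latter past the test (0.00162). Over all alternatives the adjusted p ran from 0.0137 to 0.928 for siJunb and from 0.00162 to 0.876 for siH1f0. The small difference between the knockdowns passed when siControl was dropped from the fit (adjusted p = 0.0191; range 0.0191 to 0.654) and without either siControl library.

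Within a library, the ratio of Mef2a to Mef2d does not depend on the scaling between libraries. Per length it was 1.20 and 1.28 in siControl, 0.862 and 0.904 in siJunb, and 1.48 and 1.60 in siH1f0. Mef2d RNA thus exceeded Mef2a RNA in both siJunb libraries and in no other, and the 3 groups did not overlap. This ratio was not tested. Taking the whole family per annotated length, Mef2c, induced and endogenous together, made up 57.2% and 70.8% of MEF2 TPM in siControl. It made up 69.6% and 69.6% in siJunb, and 74.8% and 73.1% in siH1f0. The Mef2d share was 19.4% and 12.8%, 16.3% and 15.9%, and 10.2% and 10.4% in the same order. Its siControl values lie on both sides of the siJunb values, because the share also moves with Mef2c, which was low in siControl 1. The fourth family gene, Mef2b, made up at most 0.0368%.

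**Figure D2:**
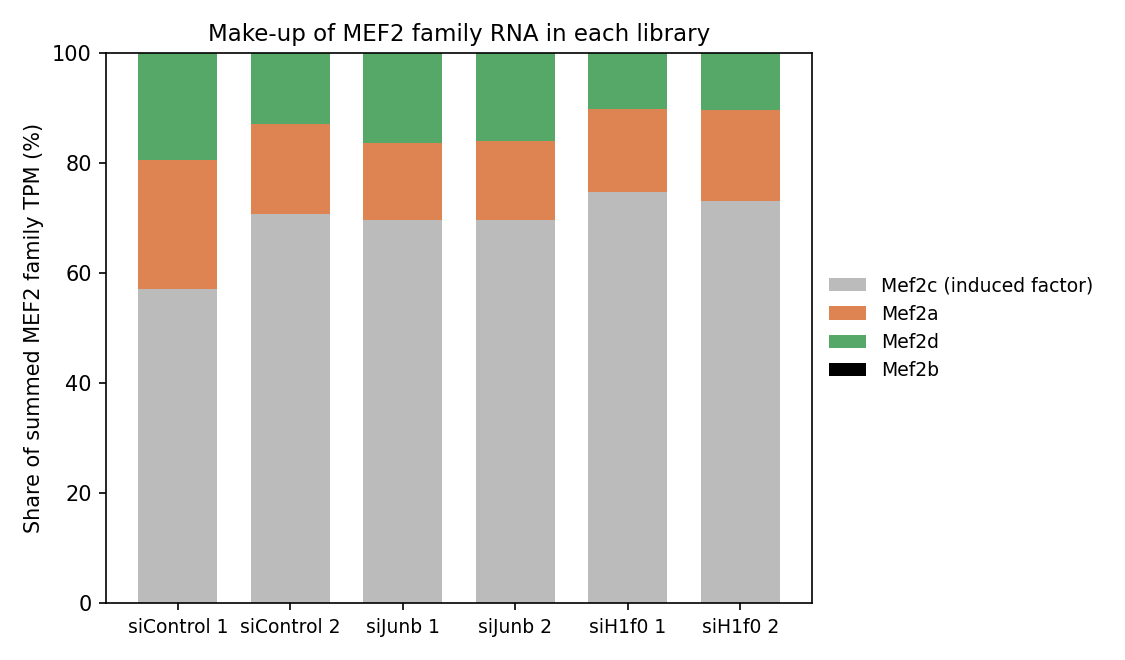
Share of the summed TPM of the 4 MEF2 genes (vertical axis, percent) in each of the 6 libraries (horizontal axis), stacked by gene. Mef2c, induced and endogenous together, takes 57.2% in siControl 1 and 69.6% to 74.8% elsewhere. Mef2d is above Mef2a in the siJunb libraries only.

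Gata6 (gene 14465, chromosome 18, 11052510 to 11085636), which shares many cardiac target genes with Gata4, passed the test in no comparison. It measured 25.1 and 26.4 CPM in the siControl pair, 24.8 and 24.8 in the siJunb pair, and 26.5 and 26.0 in the siH1f0 pair. All 6 values lay within 24.8 to 26.5 CPM although the induced Gata4 was at 854 CPM in siControl 1 and 1318 to 1500 CPM in the other 5. The log2 difference from siControl was -0.019 in siJunb (95% interval -0.16 to 0.12, edgeR adjusted p = 0.865) and 0.014 in siH1f0 (-0.12 to 0.15, adjusted p = 0.918). In CPM, which leaves out the scaling factors used in the test, both siJunb values were below both siControl values. With those factors and siControl 2 left out, the log2 difference was 0.018, so siJunb was then not below siControl 1. Per length Gata4 exceeded Gata6 31.9-fold in siControl 1 and 49.9-fold to 53.0-fold in the other libraries, and Gata6 made up 1.84% to 3.01% of GATA family TPM. The remaining GATA RNA was Gata2 and Gata3, each below 0.57% of the family, with Gata1 and Gata5 at 0 counts.

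Hopx (gene 74318, chromosome 5, 77086986 to 77115123) was higher in both knockdowns. It measured 5.33 and 5.36 CPM in the siControl pair, 7.33 and 7.41 in the siJunb pair, and 8.32 and 7.29 in the siH1f0 pair. The siControl libraries lay below all 4 knockdown libraries, and the siH1f0 libraries differed from each other more than either other pair. In siJunb Hopx rose by 0.50 ± 0.11 on the log2 scale (SE; edgeR adjusted p = 0.0157), 1.41-fold. In siH1f0 it rose by 0.53 ± 0.10 (edgeR adjusted p = 0.0223), 1.44-fold. Both comparisons use the same siControl libraries. The direct difference between the knockdowns was 0.032 (95% interval -0.21 to 0.27, adjusted p = 0.857). These values rest on 354 to 494 counts per library. The call in siJunb was lost without siJunb 1 (adjusted p = 0.112) or siJunb 2 (0.116; range over all alternatives 6.49e-04 to 0.116), with the log2 change at 0.51 and 0.49. That in siH1f0 was lost when siJunb was dropped from the fit (0.067), without siJunb 1 (0.066) or siJunb 2 (0.0663), and without siH1f0 1 (0.241) or siH1f0 2 (0.0872; range 3.09e-04 to 0.241). Without siControl 1 the changes were 0.48 and 0.51 and both passed.

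Srf (gene 20807, chromosome 17, 46546838 to 46558267) measured 83.0 and 79.0 CPM in the siControl pair, 76.2 and 74.7 in the siJunb pair, and 75.7 and 83.4 in the siH1f0 pair. Both siJunb libraries were below both siControl libraries, while the siH1f0 libraries spanned the siControl range. The log2 difference was -0.067 in siJunb (95% interval -0.20 to 0.068, edgeR adjusted p = 0.479) and -0.040 in siH1f0 (-0.18 to 0.094, adjusted p = 0.735), neither past the test. Per length, Mef2d over Srf ranged from 0.769 to 1.41. The cardiac coactivator of SRF, Myocd, was at most at 0.0698 CPM. The other SRF coactivators of the myocardin family were present: Mkl1 was at 54.0 to 62.3 CPM and Mkl2 at 58.9 to 74.6 CPM.

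**Figure D3:**
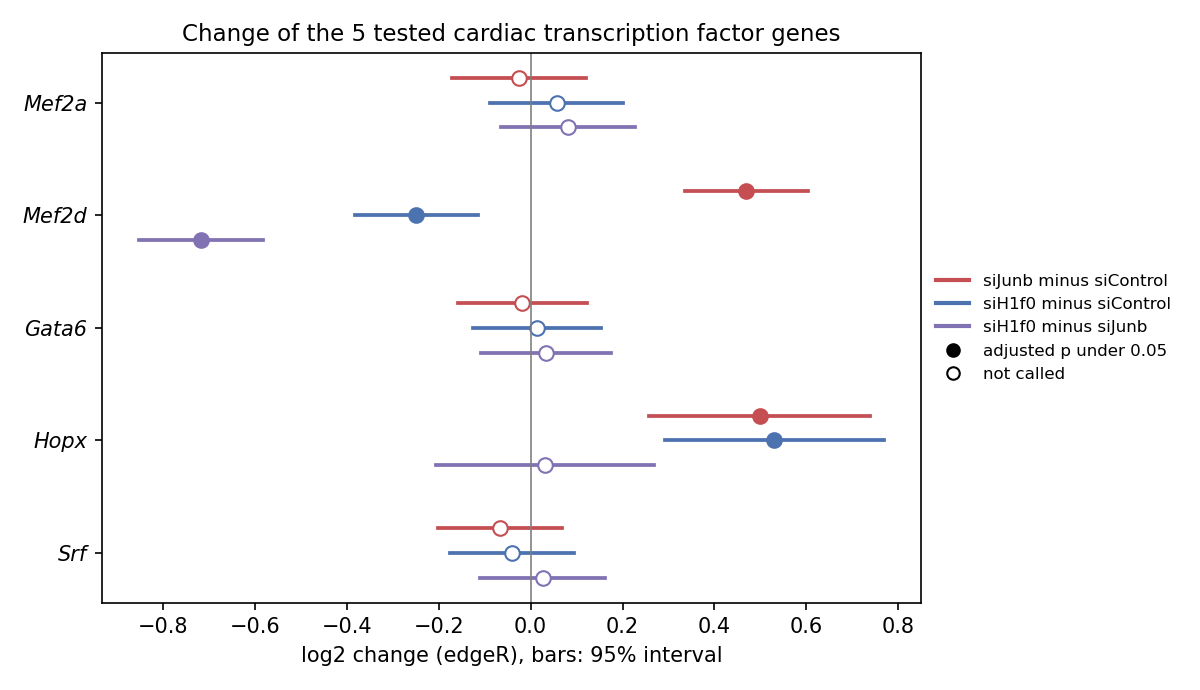
Log2 change (horizontal axis; points, with bars for the 95% interval) of the 5 tested members in the 3 comparisons; filled points have an adjusted p under 0.05. Mef2d lies at 0.47 in siJunb and -0.25 in siH1f0, Hopx at 0.50 and 0.53, and the intervals of Mef2a, Gata6 and Srf include 0 in all 3 comparisons.

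Counted over the 5 tested members, Mef2d and Hopx were called higher in siJunb and the other 3 did not pass, where 16.5% of all 13427 tested genes were called, 8.63% higher and 7.82% lower. For siH1f0 Hopx was called higher and Mef2d lower, where 6.55% of all genes were called, 2.27% higher and 4.27% lower. Between the knockdowns Mef2d alone was called, where 25.9% of all genes were called, 12.2% higher and 13.8% lower. Ranges were compared in CPM, without the scaling factors used in the test. They did not overlap for 4 of the 5 members in siJunb (57.5% of all genes), where the 4 included Gata6. The same held for 2 of the 5 in siH1f0 (50.7%) and 3 of the 5 between the knockdowns (72.5%). The median log2 change of the 5 members was -0.019 in siJunb, 0.014 in siH1f0 and 0.032 between the knockdowns, and that of all tested genes was 0.0024, 0.0034 and 7.15e-04. In siJunb 12.1% of all genes had a larger change than Mef2d in either direction. With only 5 members, and with members chosen when results of these data were known, these counts describe the genes and are no test of the group. For all genes the siJunb calls split into 1159 higher and 1050 lower, and 884 and 1369 without scaling factors. Between the knockdowns the split was 1637 and 1847, and 2222 and 1340 without them.

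**Figure D4:**
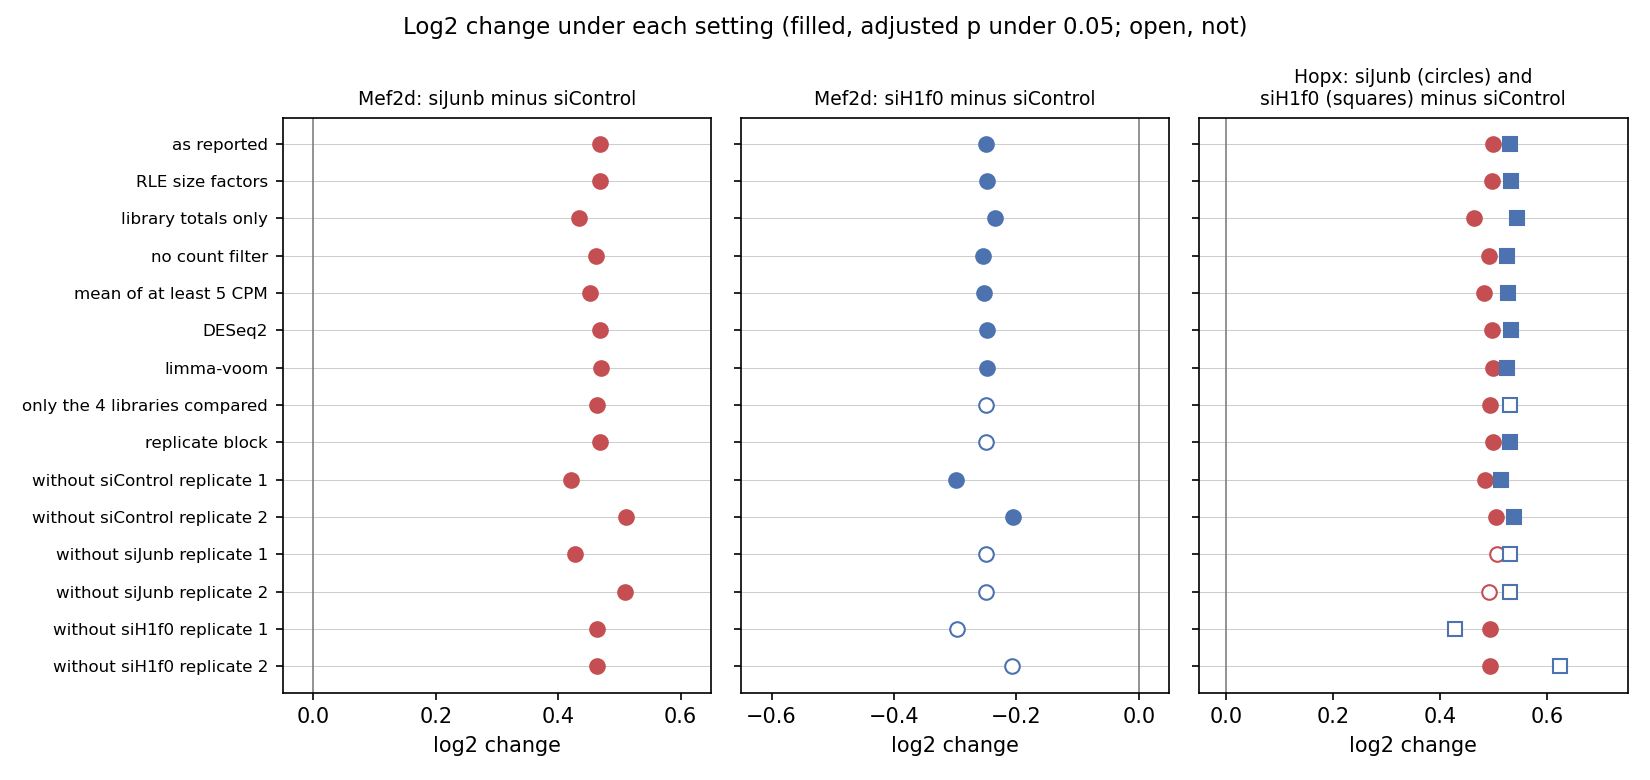
Log2 change (horizontal axis) of Mef2d in each knockdown and of Hopx in both, under the reported fit and each of 14 alternatives (vertical axis); filled symbols passed the test. Every estimate keeps its sign; Mef2d in siJunb stays filled throughout, whereas Mef2d and Hopx in siH1f0 turn open in 6 and 5 settings.

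Other genes of the same DNA-binding families were few in these cells. Of 18 listed genes 6 had no count in any library, among them Hand1, the partner gene of Hand2, and Isl1, a marker of heart progenitors, and 8 were tested. In siJunb 2 of the 8 fell, where 7.82% of all genes were called lower: Tbx3, a T-box repressor gene of the conduction system (-0.34 ± 0.06, edgeR adjusted p = 0.00682), and the Iroquois gene Irx3 (-0.57 ± 0.13, adjusted p = 0.0202). The median log2 change of the 8 tested genes was -0.10. In siH1f0, where 6.55% of all genes were called, edgeR called 0 of 8, with 2 at an unadjusted p under 0.05. DESeq2 and limma-voom also called 0. The most abundant there, Tbx18 and Tbx3, differed by -0.098 and -0.034. Against siJunb, where 12.2% of all genes were called higher, 3 were higher in siH1f0: Tbx15 (0.32), Tbx3 (0.31) and Irx5 (0.39). The median over the 8 was 0.28.

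Of 21 cofactor genes, all tested, 4 fell in siJunb, where 16.5% of all genes were called, 7.82% lower. Of these, 3 encode class IIa histone deacetylases: Hdac9 (-0.59 ± 0.09, edgeR adjusted p = 0.0035), Hdac4 (-0.29 ± 0.07, adjusted p = 0.0234) and Hdac5 (-0.25 ± 0.05, adjusted p = 0.0168). The other was Nfatc4 (-0.25), a calcium-responsive factor, and the median of the list was -0.0098. Hdac7, also of class IIa, was not called in siJunb (-0.085, edgeR adjusted p = 0.354). Hdac9 measured 25.4 and 29.9 CPM with siControl and 20.4 and 20.3 CPM with siH1f0, where it was lower as well (-0.45 ± 0.09, adjusted p = 0.0196). In siH1f0 Hdac7 fell as well (-0.24 ± 0.06, adjusted p = 0.0486), while Elk1, an SRF partner of the ternary complex factor family, rose (0.29 ± 0.06, adjusted p = 0.0256). Of all genes 2.27% were called higher and 4.27% lower in siH1f0. Relative to siJunb, where 12.2% of all genes were called higher, 4 were higher in siH1f0. They were Nfatc4 (0.23), Smyd1 (0.89), Elk1 (0.18) and Zfpm2, the GATA4 cofactor FOG2 (0.27, adjusted p = 0.0499). Limma-voom called 1 of the 21 here and DESeq2 5, and the count was 0 without any 1 knockdown library and 14 without either siControl library.

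Known target genes of MEF2 moved in both directions. Of 13 tested, 4 rose and 5 fell in siJunb (median -0.27), where 8.63% of all genes were called higher and 7.82% lower. Nr4a1, an activity-induced nuclear receptor gene, rose by 0.55 ± 0.06 (edgeR adjusted p = 0.00107) from 32.0 and 29.4 CPM to 44.1 and 43.4 CPM, and Klf2 by 0.58 ± 0.08 (adjusted p = 0.00286). Mb, the myoglobin gene, rose by 0.59, and Hrc, a calcium-binding protein gene of the sarcoplasmic reticulum, fell by 0.88 (adjusted p = 0.0487). The call of Hrc was lost in 8 of the 13 alternatives that gave it a value, limma-voom among them. That of Mb was lost in 5 of 13. Myom1, the M-band gene, measured 11.2 and 11.5 CPM in the siControl pair, 8.61 and 9.28 in the siJunb pair, and 16.8 and 16.7 in the siH1f0 pair, lower in siJunb by 0.31 ± 0.08 (adjusted p = 0.0355) and higher in siH1f0 by 0.55 ± 0.08 (adjusted p = 0.0052). Mef2d had the opposite order over the 3 groups. In siH1f0 2 of the 13 rose, Mb and Myom1, and 2 fell, Hdac9 and Xirp1 (median 0.053), where 2.27% of all genes were called higher and 4.27% lower. Against siJunb, 3 were higher in siH1f0 and 3 lower, with Nr4a1 at -0.42 and Ldb3, a Z-disc gene, at 0.54. In that comparison 12.2% of all genes were called higher and 13.8% lower. Hdac9 and Smyd1 stand in both this list and that of cofactors, and Nr4a1 in that of SRF targets with ternary complex factors.

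Target genes of SRF were examined in the same way. Of 15 tested targets of SRF with myocardin-related factors, 3 rose and 1 fell in siJunb (median 0.087), where 16.5% of all genes were called: Acta2 (0.33), Itga5 (0.21, edgeR adjusted p = 0.0144), Cyr61 (0.16) and Zyx (-0.17, adjusted p = 0.0443). In siH1f0, where 6.55% of all genes were called, 2 rose, Acta2 (0.87) and Myl9 (0.84), and Ctgf fell (-0.21), with a median of 0.075. Against siJunb, Acta2 (0.54), Myl9 (1.14) and Zyx (0.18) were higher in siH1f0, and Ctgf (-0.25), Tpm1 and Itga5 (-0.14) lower, where 25.9% of all genes were called. The 11 others in siJunb and 12 in siH1f0 did not pass. Between the knockdowns the call of Itga5 was lost in 10 of 14 alternatives, other scalings and DESeq2 among them. That of Tpm1 was lost in 6 and those of Zyx and Ctgf in 4 each, while Acta2 and Myl9 kept theirs in all 14. In siJunb the call was lost in 8 alternatives for Cyr61, 6 for Zyx, 5 for Itga5 and 2 for Acta2. Of 9 tested targets of SRF with ternary complex factors, Nr4a1 alone was called in siJunb and Mcl1 alone in siH1f0 (-0.26 ± 0.05, adjusted p = 0.0257), with medians of -0.011 and 0.13. Against siJunb, Egr1 (0.23) and Egr2 (0.88) were higher in siH1f0, and Mcl1 (-0.35) and Nr4a1 lower. Over the same 3 groups Srf itself did not pass in any comparison.

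Cardiac genes read by several of these factors were measured in 12 of 16 cases, and Gja5, an Nkx2-5 and Tbx5 target of the conduction system, had no count in any library. In siJunb 1 rose, Nppb (1.01), and 4 fell, where 8.63% of all genes were called higher and 7.82% lower, and the median log2 change of the list was -0.34. Actc1, the cardiac actin gene, fell the most, by 2.43 ± 0.10 (edgeR adjusted p = 7.86e-06), from 22.4 and 19.6 CPM to 3.71 and 3.94 CPM. The atrial myosin light chain gene Myl7 fell by 1.63 ± 0.11 (adjusted p = 9.28e-05), the troponin genes Tnni3 by 0.92 ± 0.13 and Tnnc1 by 0.32 ± 0.09 (adjusted p = 0.0458). In siH1f0 Tnni3 rose (0.68 ± 0.11, edgeR adjusted p = 0.0114) and the gap junction gene Gja1 fell (-1.43 ± 0.06, adjusted p = 2.65e-05), with a median of 0.058, where 6.55% of all genes were called. Between the knockdowns 7 were higher in siH1f0 and 2 lower (median 0.77), where 12.2% of all genes were called higher and 13.8% lower. The differences were 2.30 for Actc1, 1.77 for Myl7, 1.60 for Tnni3 and -1.57 for Gja1. The 7 also included Myh6 (0.69 ± 0.11, adjusted p = 0.00266), Ttn, the titin gene (0.87 ± 0.16, adjusted p = 0.00496), and Myh7 (0.85 ± 0.26, adjusted p = 0.0444). Myh7 did not pass with limma-voom or without any 1 of the 4 knockdown libraries (adjusted p up to 0.244).

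Of the genes called in these lists, 4 of 23 in siJunb, 2 of 12 in siH1f0 and 11 of 30 between the knockdowns still passed whichever library was left out. Those 4 were Actc1, Tnni3, Myl7 and Nr4a1, and the 2 were Gja1 and Acta2. Every called gene kept its sign under all alternatives in which it was fitted, and some of low count were not fitted in each. Hdac9, Hdac4, Hdac5, Tbx3 and Irx3 are among those whose siJunb calls were lost without some library.

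The genes whose profiles over the 6 libraries were nearest to those of the changed members were found by the root mean square difference of log2 CPM centred on each gene's mean, among 9912 genes of at least 5 CPM. Nearest to Mef2d were Rdh13, a retinol dehydrogenase gene (0.0313), Socs3, a feedback inhibitor of cytokine signalling (0.0319), and AU040320 (0.0365), against a median of 0.303 over all genes. Socs3 measured 34.2 and 34.5 CPM in the siControl pair, 49.5 and 46.1 in the siJunb pair, and 31.4 and 29.3 in the siH1f0 pair. That is the same order of groups as Mef2d, as follows from the choice by nearness. The Socs3 difference in siH1f0 was not called (-0.19, edgeR adjusted p = 0.118). Nearest to Hopx were Apbb1ip (0.0577), Layn (0.0612) and the phosphodiesterase gene Pde4b (0.0822), against a median of 0.261. Apbb1ip, which encodes an adaptor of integrin signalling, measured 10.7 and 10.0 CPM in the siControl pair, 14.8 and 14.7 in the siJunb pair, and 15.2 and 14.7 in the siH1f0 pair. These are descriptions over 6 libraries in 3 groups.

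Markers of other cell types that express these factors were set beside them. Of 5 primitive endoderm genes, a lineage marked by Gata6, Sox17 and Foxa2 had no count, and Dab2, the one gene tested, rose in siJunb by 0.45 (edgeR adjusted p = 0.00585) and in siH1f0 by 0.30 (adjusted p = 0.0491), while Gata6 did not pass. The call of Dab2 in siH1f0 was lost in 7 of 14 alternatives, with the adjusted p up to 0.336, and its change was 0.19 without siControl 1. In siJunb it was lost in 2 of 14 (adjusted p up to 0.0701). Epicardial and mesothelial genes (5 listed) summed to 13.2 to 14.3 CPM in siControl and siJunb and 8.06 and 8.81 CPM in siH1f0, mostly Msln, which fell in siH1f0 by 1.07. Another of these genes, Upk3b, rose in siJunb by 1.30 ± 0.21 (edgeR adjusted p = 0.00508) from 0.884 and 0.970 CPM to 2.35 and 2.07 CPM, and was 1.38 lower on the log2 scale in siH1f0 than in siJunb. The third one tested, Wt1, differed by 0.36 in siH1f0 and did not pass. Fibroblast markers moved both ways: Dcn rose by 1.68 in siJunb and by 0.65 in siH1f0, and of 9 tested 2 were higher and 1 lower in siJunb, 2 higher in siH1f0, and 3 higher and 3 lower between the knockdowns. Of 9 cardiomyocyte markers tested 3 were lower in siJunb, 1 was higher in siH1f0, and 6 were higher and 1 lower between the knockdowns. Of all tested genes 8.63% were called higher and 7.82% lower in siJunb, and 2.27% and 4.27% in siH1f0. Between the knockdowns these shares were 12.2% and 13.8%. Smooth muscle markers (8 listed) summed to 43.1 to 48.5 CPM in all libraries. The part of any of these cell types in the changes of Mef2d and Hopx was not tested.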

How the data were processed

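Poly(A) RNA of the 6 libraries was sequenced, and the authors deposited whole-number read counts per gene with a gene length, another value of the same table. HISAT2, Subread, featureCounts and mm10 are named, per the submitters' processing notes; versions, annotation, strand setting and treatment of multiply mapped reads are not stated there. Groups came from the sample labels. Counts were filtered with filterByExpr, scaled by TMM and tested with edgeR's quasi-likelihood F test (R 4.3.3, edgeR 4.0.16, limma 3.58.1) fitted to the 6 libraries on group alone, with 3 residual degrees of freedom. Calls are Benjamini-Hochberg adjusted p-values under 0.05 over 13427 genes, and adjusted p-values in the text are from this fit, except those given for a named alternative and the ranges over alternatives, which include all tools and fits. CPM and TPM use all counts of the table. With 2 labelled biological replicates of 1 line per group, p-values, SEs and intervals rest on the spread between these libraries. The fit moderates each gene's spread with that of all tested genes, so they do not rest on the gene's own spread alone. Named by rule were the members, the induced factors, the siRNA targets, up to 3 called genes of smallest p per list and comparison (the 2 most abundant where none was called) and the 3 genes nearest in profile to each called member. Other list genes, the marker genes and Mkl1 and Mkl2 were named after their values were seen. The members and lists were chosen with earlier results of these data known. The alternatives were other scalings, filters and tools (DESeq2 1.42.0, limma-voom), fewer libraries, a replicate block and each library left out. The script was tested on simulated data. Promoters are RefSeq, and loci are on GRCm38.p6.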

Additional observations from a re-analysis of the deposited data

How the results depend on the processing

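Every alternative kept the sign of the Mef2d and Hopx changes against siControl, and Mef2d in siJunb and between the knockdowns passed in all 14. The number of members called in siJunb was 2, and 1 to 3 with a library left out. In siH1f0 it was 2, 0 with the third group dropped from the fit, 1 with the block and 0 to 3 with a library left out. Between the knockdowns it was 1, 2 with the third group dropped and 1 to 2 with a library left out. Over all genes, the siJunb calls (2209) became 1109 with the third group dropped and 349 to 5488 with a library left out. Those of siH1f0 (879) became 1921 with no count filter, 327 with the third group dropped, 550 with the block, 1194 with DESeq2 and 117 to 4908 with a library left out. Between the knockdowns (3484) they became 6462 with the third group dropped and 1296 to 6424 with a library left out. The cause was not tested.

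With a library left out, log2 changes that crossed 0 in siJunb ran from -0.045 to 0.69 for Gata4, -0.085 to 0.36 for Tbx5, -0.12 to 0.061 for Mef2a and -0.064 to 0.018 for Gata6. In siH1f0 they ran from -0.035 to 0.15 for Mef2a, -0.032 to 0.053 for Gata6, -0.0012 to 0.45 for Tbx5, -0.11 to 0.024 for Srf and -0.081 to 0.0082 for Tbx3. Between the knockdowns they ran from -0.065 to 0.13 for Hopx, -0.050 to 0.10 for Mef2c and -0.040 to 0.095 for Srf.

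Same-numbered libraries did not deviate together over all tested genes (r = 0.0477, -0.0412 and 0.0627 over 13427 genes). The labels name no paired design, so the reported fit did not pair them. Such an r cannot exclude that same-numbered libraries were handled together. With the replicate block the calls numbered 1684 in siJunb, 550 in siH1f0 and 2919 between the knockdowns, and Mef2d in siH1f0 had an adjusted p of 0.0784. Depth limits what can be said of Myocd, with 13 counts in all, and of Tbx20, Hand2 and Nkx2-5, with 0.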
